A study of Homo sapiens with 8 samples.

Results

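The enzymes examined here make, recycle or break down deoxynucleotides, the building blocks of DNA. They comprised 9 genes, RRM1, RRM2, RRM2B, TYMS, TK1, DUT, DCK, CTPS1 and SAMHD1, picked by symbol from the 17912 genes of the deposited tables, and all 9 had values. RNA was sequenced from NKM-1 cells, a human leukemia line of myeloid type and wildtype genotype by its labels, after 48 h with DMSO, the solvent, or with SF153 at 30 uM. SF153 is described in the series title as an inhibitor of splicing factors that carry a U2AF homology motif (UHM), and the title names cell cycle progression among the processes it alters. There were 4 libraries per treatment, split evenly over batches 1 and 2, and nothing in the labels shows that the libraries of a batch came from separate cultures, so p-values measure the spread between libraries, which may be technical. A library is named by its batch and its number within the batch, so that DMSO 1.2 is the second DMSO library of batch 1.

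After SF153, 6 of the 9 mRNAs were lower and 3 did not pass the test. The thymidine kinase TK1 fell to 21.9% of its DMSO mean, the thymidylate synthase TYMS to 28.7%, the reductase subunits RRM1 and RRM2 to 37.4% and 56.3%, the deoxycytidine kinase DCK to 41.0% and the dUTPase DUT to 45.8%. CTP synthase (CTPS1), the dNTP hydrolase SAMHD1 and the alternative reductase subunit RRM2B stood at 90.2%, 92.0% and 102.4% of their DMSO means. Of all 15542 genes tested, 24.3% were called lower and 13% higher, by limma with a Benjamini-Hochberg adjusted p below 0.05. The median log2 difference was -1.11 over the 9 enzymes and -0.03 over all genes tested. Among the 11087 genes whose signal averaged at least 5, as that of each enzyme did, 32.7% were called lower and the median was -0.10. In RNA from whole cultures, fewer cells in a given state and less of an mRNA per cell cannot be told apart.

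Ribonucleotide reductase converts ribonucleotides to deoxynucleotides and is the step that limits their supply in dividing cells. It joins a large catalytic subunit (RRM1) with a small radical-bearing subunit, either RRM2, which is made in S phase and destroyed in mitosis, or RRM2B, which p53 can induce and which serves DNA repair and mitochondrial DNA outside S phase. Thymidylate is made from dUMP by TYMS with a folate cofactor, or recovered from thymidine by TK1. DUT supplies dUMP and keeps uracil out of DNA, DCK phosphorylates deoxycytidine and activates the leukemia drug cytarabine, CTPS1 makes CTP, and SAMHD1 cleaves dNTPs and can inactivate the active form of cytarabine.

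Values are given as signal, the authors' normalised measure, recorded here as of a TPM type. A TPM is scaled to transcript length and to the library. The scaling was not given in the sources used here, so scaling to length is not certain. The column sums lay between 828381 and 1027119, and the read depth of each library is unknown. The share of mitochondrially encoded genes was 16.8% in SF153 2.1 and SF153 2.2 and 9.17% to 9.92% elsewhere, and that of nuclear small RNA genes was 47.0% and 45.8% in SF153 1.1 and SF153 1.2 and 32.9% to 38.5% elsewhere. Because of these shifts each enzyme was also measured after other scalings. Of 9 myeloid markers tested 4 were lower, 2 higher and 3 not called (median log2 difference -0.43). Among all genes tested 24.3% were lower and 13% higher. The summed signal of the myeloid list was 1361 to 1494 in DMSO and 901 to 1131 in SF153. The granule enzyme MPO had 717 to 763 in DMSO and 420 to 543 in SF153 and the surface receptor CD33 had 68.4 to 83.3 and 90.5 to 108.9, whereas the monocyte marker CD14 was at 0.89 or less in every library. The B cell receptor genes CD79A and CD79B, of the lymphoid list, had 24.7 to 29.4 and 51.2 to 59.3 in DMSO and 3.39 to 10.1 and 14.9 to 35.0 in SF153, and the T cell genes of that list were not analysed here. The part of these marker shifts in the enzyme results was not tested.

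E2F factors, NF-Y and the cell cycle gene homology region (CHR) are known to act at promoters of S phase and mitotic genes. Start-site sequences of the enzymes are described here for such motifs. The part of these motifs in the fall of 6 of the genes was not tested. Promoters of 300 bases, 250 before and 50 after the start, were taken from RefSeq (GRCh38.p14) for 8 of the 9 genes, with 14 starts in all. RRM2B, which did not pass the expression test, was left out of the set before the search, so its absence is not a result. The shares of 8 genes and 14 starts given below leave it out, and whether its promoter holds a match was not tested. Searched on both strands were 4 E2F sequences (TTTCCCGC, TTTGGCGC, TTTCGCGC and TTTGGCGG), the NF-Y box (CCAAT) and a pair of CHR sequences (TTTGAA and TTCGAA). Below are the 130 bases before the start, 5′ to 3′ along the gene, with every match in capitals. A match on the other strand appears as its reverse complement, so that CCAAT reads ATTGG. For genes with several starts the start with the most matches in these bases was taken, after the matches were seen.
TYMS: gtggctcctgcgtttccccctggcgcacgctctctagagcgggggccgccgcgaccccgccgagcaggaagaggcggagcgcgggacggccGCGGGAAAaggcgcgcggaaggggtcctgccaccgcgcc
DUT: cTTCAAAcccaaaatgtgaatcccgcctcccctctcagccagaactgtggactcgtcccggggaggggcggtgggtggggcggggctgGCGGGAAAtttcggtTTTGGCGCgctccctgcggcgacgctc
RRM2: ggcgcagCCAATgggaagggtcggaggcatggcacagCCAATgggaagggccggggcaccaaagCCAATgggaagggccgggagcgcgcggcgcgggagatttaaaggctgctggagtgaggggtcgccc
TK1: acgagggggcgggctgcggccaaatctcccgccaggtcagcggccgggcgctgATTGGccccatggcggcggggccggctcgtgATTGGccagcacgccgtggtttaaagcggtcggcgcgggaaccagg
SAMHD1: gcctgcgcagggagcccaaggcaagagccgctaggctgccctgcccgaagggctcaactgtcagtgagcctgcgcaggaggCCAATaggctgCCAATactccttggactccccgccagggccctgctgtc

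These stretches lie at chr18:657523-657652 (TYMS, plus strand), chr15:48332067-48332196 (DUT, plus), chr2:10122609-10122738 (RRM2, plus), chr17:78187053-78187182 (TK1, minus) and chr20:36951709-36951838 (SAMHD1, minus). An E2F sequence was present at a start of DUT, TYMS and DCK, 3 of 8 genes, and in 4.05% of the 27305 genes with a promoter in the table. Counted by start, it was present at 3 of 14 starts and at 3.35% of all 35116. DUT carried TTTCCCGC and TTTGGCGC within its last 42 bases before 1 of its 4 starts, TYMS carried TTTCCCGC at -39, and DCK carried TTTGGCGC at +22, after the start. The NF-Y box was present in RRM1, RRM2, TK1 and SAMHD1, 4 of 8 genes, against 39.7% of all genes. By start it was present at 5 of 14, against 34.6% of all starts. RRM2 had 3 copies between -123 and -62. SAMHD1, which did not pass the expression test, held 2 copies of the same box as TK1, which fell the most. A CHR sequence was present in DUT and RRM1, 2 of 8 genes, against 19.5% of all genes, and at 2 of 14 starts, against 16.4% of all starts. CTPS1 had no match at either of its 2 starts. A match describes the letters of the window and does not show that a factor binds there.

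**Figure D1:**
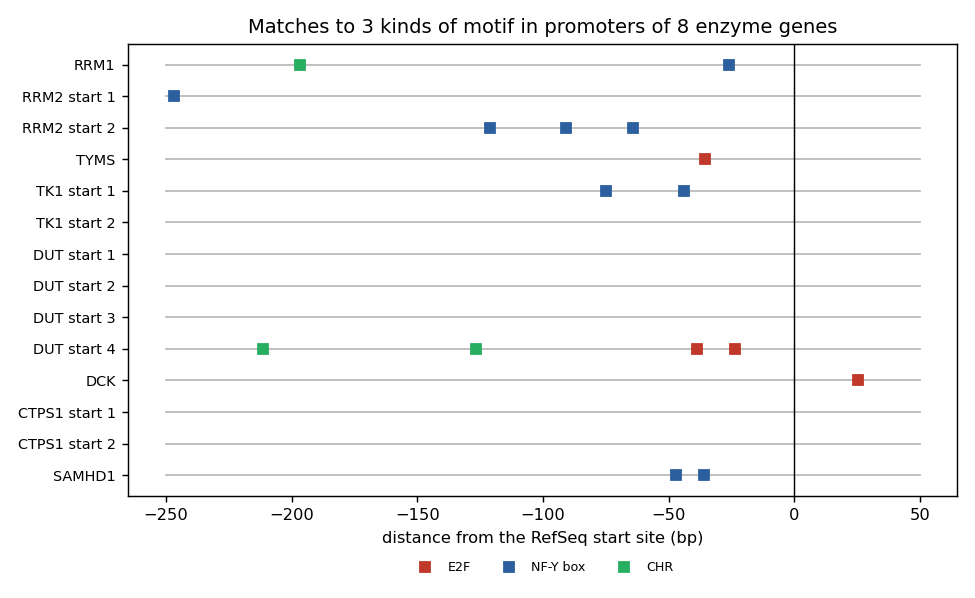
Position of each motif match relative to the RefSeq start site, in base pairs, for the 14 starts of 8 enzyme genes; squares mark E2F (red), NF-Y box (blue) and CHR (green) sequences. Matches of E2F type stand within 50 bases of a start of TYMS, DUT and DCK, NF-Y boxes lie before starts of RRM1, RRM2, TK1 and SAMHD1, and both CTPS1 lines are empty.

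RRM2 encodes the S phase small subunit of the reductase and lies on chromosome 2 (10120698 to 10131419, plus strand, GENCODE 29 on GRCh38). Its signal was 205.9 and 234.0 in the DMSO libraries of batch 1, 198.3 and 199.5 in those of batch 2, 121.7 and 107.3 in SF153 batch 1 and 118.8 and 123.4 in SF153 batch 2. Every SF153 library lay below every DMSO library, and the SF153 values of both batches lay close together. The mean fell from 209.4 ± 16.7 to 117.8 ± 7.25 (SD, n = 4 per group), a log2 difference of -0.82 ± 0.08 (SE, limma adjusted p = 7.09e-05). Within batches the log2 difference was -0.94 in batch 1 and -0.71 in batch 2. The annotated gene AC007240.1, which overlaps RRM2 by 8681 bp on the same strand, was not analysed here. RRM2 had the smallest change of the 6 enzymes called lower and the highest signal of the 9 in both treatments.

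RRM1, the large subunit that carries the catalytic and allosteric sites, lies on chromosome 11 (4094707 to 4138876, plus strand). Its signal was 41.1 and 35.6 in DMSO batch 1, 32.3 and 32.1 in DMSO batch 2, 12.5 and 10.997 in SF153 batch 1 and 14.8 and 14.5 in SF153 batch 2. The groups were well apart, with the highest SF153 value at 14.8 and the lowest DMSO value at 32.1. The mean fell from 35.3 ± 4.22 to 13.2 ± 1.79 (SD, n = 4), a log2 difference of -1.36 ± 0.12 (SE, limma adjusted p = 5.45e-05). The difference was -1.63 in batch 1, where DMSO was higher and SF153 lower, and -1.08 in batch 2.

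RRM2B, the small subunit used outside S phase, lies on chromosome 8 (102204502 to 102239118, minus strand). Its signal was 25.6 and 20.6 in DMSO batch 1, 21.0 and 18.2 in DMSO batch 2, 22.3 and 21.6 in SF153 batch 1 and 23.3 and 20.3 in SF153 batch 2. The SF153 values all fell inside the DMSO range. The means were 21.4 ± 3.07 and 21.9 ± 1.26 (SD, n = 4), and the log2 difference of 0.04 had a 95% interval from -0.20 to 0.28 (limma adjusted p = 0.794). After mitochondrially encoded and small RNA genes were removed and the libraries rescaled, RRM2B was called higher (log2 difference 0.37, limma adjusted p = 0.016), in a scaling where 35% of all genes tested were called higher.

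The thymidylate enzymes had the largest changes. TK1, the cytosolic thymidine kinase made in S phase, lies on chromosome 17 (78174075 to 78187233, minus strand). Its signal was 64.1 and 60.2 in DMSO batch 1, 45.8 and 47.5 in DMSO batch 2, 12.3 and 13.0 in SF153 batch 1 and 9.27 and 13.1 in SF153 batch 2. The DMSO libraries split by batch, whereas the SF153 libraries did not. The mean fell from 54.4 ± 9.12 to 11.9 ± 1.79 (SD, n = 4), a log2 difference of -2.10 ± 0.14 (SE, limma adjusted p = 1.93e-05), with -2.21 in batch 1 and -1.99 in batch 2. This was the 91st lowest difference among the 15542 genes tested.

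TYMS, which methylates dUMP and is the target of fluorouracil and several antifolates, lies on chromosome 18 (657604 to 673578, plus strand). Its signal was 128.0 and 133.3 in DMSO batch 1, 118.9 and 111.6 in DMSO batch 2, 32.5 and 38.3 in SF153 batch 1 and 35.0 and 35.2 in SF153 batch 2. All SF153 libraries lay far below the DMSO range. The mean fell from 122.9 ± 9.64 to 35.3 ± 2.39 (SD, n = 4), a log2 difference of -1.77 ± 0.08 (SE, limma adjusted p = 3.43e-06), with -1.86 and -1.68 in batches 1 and 2. TYMS shares 3255 bp with ENOSF1 on the opposite strand, a gene not analysed here; the library kit marks strand, but whether the authors' counting used it was not given in the sources used here. Another opposite-strand gene, the noncoding TYMSOS at the TYMS start, had 1.49 to 3.65 in DMSO and 1.17 to 2.41 in SF153.

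DUT, the dUTPase that feeds TYMS, lies on chromosome 15 (48331011 to 48343373, plus strand) and makes a nuclear and a mitochondrial protein from different starts, which gene-level values do not separate. Its signal was 111.1 and 85.3 in DMSO batch 1, 85.0 and 88.9 in DMSO batch 2, 45.5 and 33.9 in SF153 batch 1 and 43.8 and 46.4 in SF153 batch 2. DMSO 1.1 stood above the other DMSO libraries, and without it the log2 difference was -1.02. The mean fell from 92.6 ± 12.5 to 42.4 ± 5.73 (SD, n = 4), a log2 difference of -1.11 ± 0.12 (SE, limma adjusted p = 0.000135), with -1.29 and -0.93 in batches 1 and 2. The pseudogene DUTP6, whose sequence may share reads with DUT, was at 2.47 or less in every library.

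DCK, the kinase that starts the salvage of deoxycytidine, lies on chromosome 4 (70992538 to 71030914, plus strand). Its signal was 33.0 and 36.4 in DMSO batch 1, 31.2 and 29.5 in DMSO batch 2, 15.4 and 13.0 in SF153 batch 1 and 12.001 and 12.9 in SF153 batch 2. No SF153 library reached the DMSO range. The mean fell from 32.5 ± 2.97 to 13.3 ± 1.46 (SD, n = 4), a log2 difference of -1.23 ± 0.10 (SE, limma adjusted p = 4.27e-05), and the batches gave -1.23 and -1.22. MOB1B overlaps DCK by 29912 bp on the same strand, so reads in the shared stretch could be counted for either gene. MOB1B had 25.9 to 27.5 in DMSO and 27.3 to 35.0 in SF153, where its lowest library was inside the DMSO range and the others above it.

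The enzymes of CTP synthesis and of dNTP breakdown were near their DMSO levels. CTPS1, which turns UTP into CTP and is needed by proliferating lymphocytes, lies on chromosome 1 (40979335 to 41012565, plus strand). Its signal was 59.0 and 64.0 in DMSO batch 1, 55.5 and 65.0 in DMSO batch 2, 52.7 and 52.4 in SF153 batch 1 and 58.6 and 55.9 in SF153 batch 2. The ranges overlapped, the means were 60.9 ± 4.45 and 54.9 ± 2.94 (SD, n = 4), and the log2 difference of -0.15 had a 95% interval from -0.32 to 0.03 (limma adjusted p = 0.172). Its direction depended on the scaling, at 0.04 after quantile normalisation and 0.19 once mitochondrial and small RNA genes were removed.

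SAMHD1 lies on chromosome 20 (36889773 to 36951901, minus strand). Its signal was 97.0 and 100.4 in DMSO batch 1, 99.6 and 96.0 in DMSO batch 2, 80.8 and 93.9 in SF153 batch 1 and 94.4 and 92.6 in SF153 batch 2. The SF153 values all lay below the DMSO values by a small margin, and SF153 1.1 stood apart at the low end. The means were 98.2 ± 2.07 and 90.4 ± 6.47 (SD, n = 4), and the log2 difference of -0.12 did not pass (95% interval -0.28 to 0.04, limma adjusted p = 0.207). Here too the sign depended on the scaling, at 0.05 after quantile normalisation and 0.22 once mitochondrial and small RNA genes were removed. Counting SAMHD1, 7 of the 9 enzymes had no SF153 library at or above any DMSO library, which held for 23.6% of all genes tested.

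**Figure D2:**
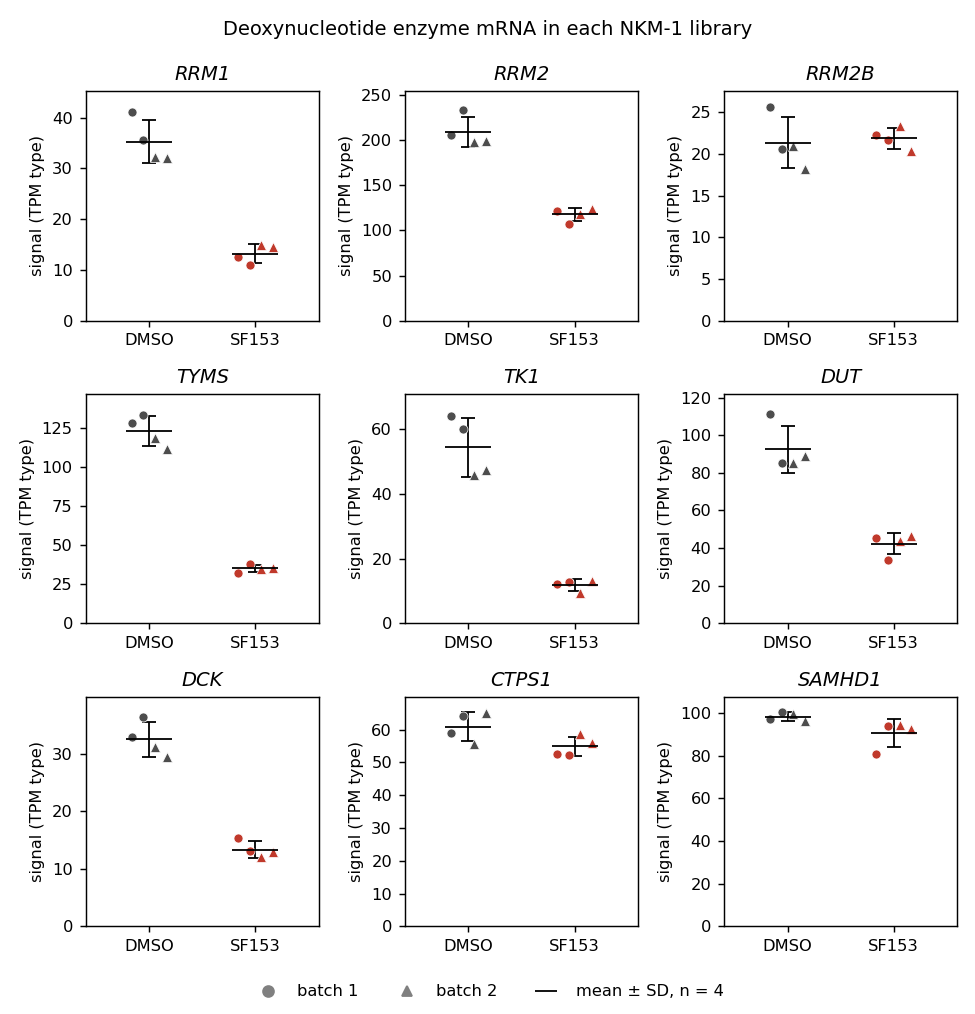
Signal (TPM type, linear axis from 0) of each enzyme mRNA in the 4 DMSO (grey) and 4 SF153 (red) libraries; circles are batch 1, triangles batch 2, and the bar and whiskers are mean ± SD (n = 4). TK1, TYMS, RRM1, DCK, DUT and RRM2 show 2 separate groups, CTPS1 and RRM2B overlap, and SAMHD1 is lower by a small margin.

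The 6 lower calls held in each of 20 alternative settings, among them 3 other scalings and the removal of a trend on transcript length, the last chosen after seeing the data. The share of all genes called lower ran from 13.8% to 32.7% over these settings, the highest among genes whose signal averaged at least 5. Each of the 6 changed least with mitochondrial and small RNA genes removed, where 13.8% of all genes were called lower and the log2 differences were -1.77 for TK1, -1.44 for TYMS, -1.03 for RRM1, -0.90 for DCK, -0.77 for DUT and -0.48 for RRM2. That rescaling moved the median of all genes by 0.30, quantile normalisation moved it by 0.10 and median-of-ratios scaling by 0.07. With libraries averaged within treatment and batch, which leaves 2 values against 2, all 6 were called lower, where 16.2% of all genes were. The longest annotated transcripts of the 6 lower genes measured 1662 to 3673 bp and those of CTPS1, RRM2B and SAMHD1 4790, 4931 and 5298 bp. Over the 15067 tested genes with an annotated length the median log2 difference was 0.01 under 2000 bp, -0.08 from 2000 to 4000 bp and -0.04 above 4000 bp. With the length trend removed the 6 genes kept log2 differences from -1.92 (TK1) to -0.71 (RRM2), where 20.5% of all genes were called lower.

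**Figure D3:**
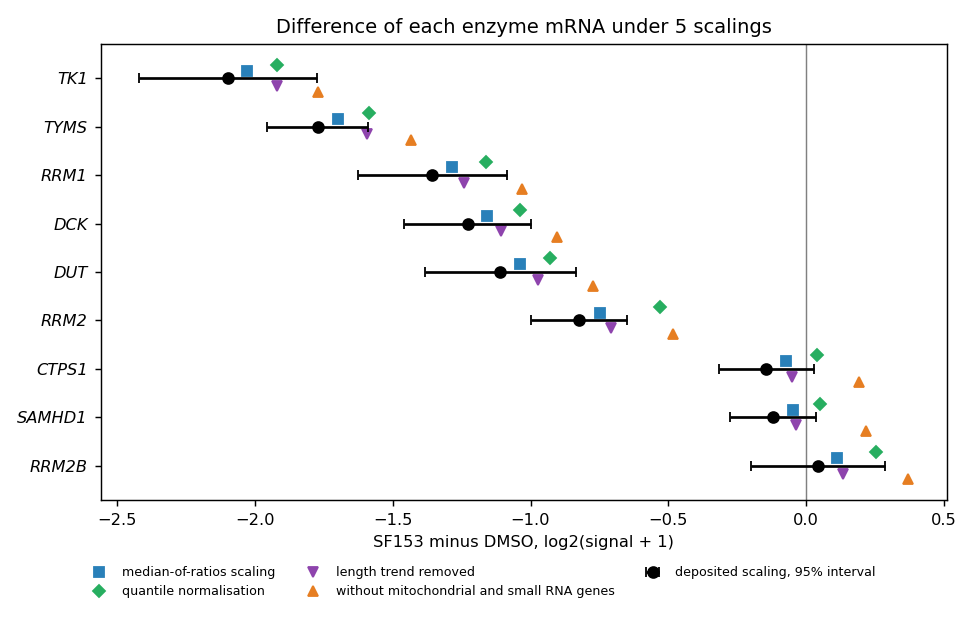
Difference of SF153 minus DMSO in log2(signal + 1) for each enzyme; black points with whiskers are the deposited scaling with its 95% interval, and coloured symbols the same difference after 4 other treatments of the values. TK1 to RRM2 stay below 0 with every symbol, CTPS1 and SAMHD1 have symbols on both sides of 0, and the points of RRM2B lie above 0 with an interval that spans it.

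The order of the enzymes by signal changed between treatments. Scaling of the signal to transcript length is not certain, and the part of length in this order was not tested. In DMSO it ran RRM2, TYMS, SAMHD1, DUT, CTPS1, TK1, RRM1, DCK and RRM2B. The ranges of SAMHD1 and DUT, of CTPS1 and TK1, and of RRM1 and DCK overlapped, and all other neighbours were apart. In SF153 the order was RRM2, SAMHD1, CTPS1, DUT, TYMS, RRM2B, DCK, RRM1 and TK1, with overlap between DUT and TYMS, between DCK and RRM1, and between RRM1 and TK1. TYMS thus stood above SAMHD1 in each DMSO library and below it in each SF153 library. RRM2B had the lowest signal in DMSO but exceeded DCK, RRM1 and TK1 in SF153.

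Ratios within a library do not depend on the scaling between libraries, and 3 were examined. The ratio of RRM2 to RRM1 was 5.005, 6.57, 6.14 and 6.21 in the DMSO libraries and 9.74, 9.76, 8.03 and 8.50 in the SF153 libraries. It rose from 5.98 ± 0.68 to 9.01 ± 0.88 (SD, n = 4), a log2 difference of 0.59 (two-sided exact permutation p = 0.0286, adjusted over the 3 ratios 0.0286). The large subunit mRNA thus fell by more than that of its S phase partner, in every SF153 library relative to every DMSO library.

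The ratio of RRM2 to RRM2B compares both small subunits. It was 8.05, 11.3, 9.46 and 10.9 in DMSO and 5.46, 4.96, 5.10 and 6.08 in SF153. The mean ratio went from 9.95 ± 1.504 to 5.40 ± 0.50 (SD, n = 4), a log2 difference of -0.87 (two-sided exact permutation p = 0.0286, adjusted 0.0286). The signal of RRM2 remained above that of RRM2B in every library. The ratio of TK1 to DCK, the cytosolic kinases for thymidine and deoxycytidine, was 1.94, 1.65, 1.47 and 1.61 in DMSO and 0.80, 0.99, 0.77 and 1.02 in SF153. It went from 1.67 ± 0.20 to 0.90 ± 0.13 (SD, n = 4), a log2 difference of -0.90 (two-sided exact permutation p = 0.0286, adjusted 0.0286). With 4 libraries against 4, 0.0286 is the smallest p that this test can give. Libraries were also permuted within batch, which respects a pairing by batch number. None of the 3 ratios then passed (two-sided exact permutation, adjusted p = 0.0556 for each, the smallest that this scheme can give). Within single batches p cannot go below 0.333.

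**Figure D4:**
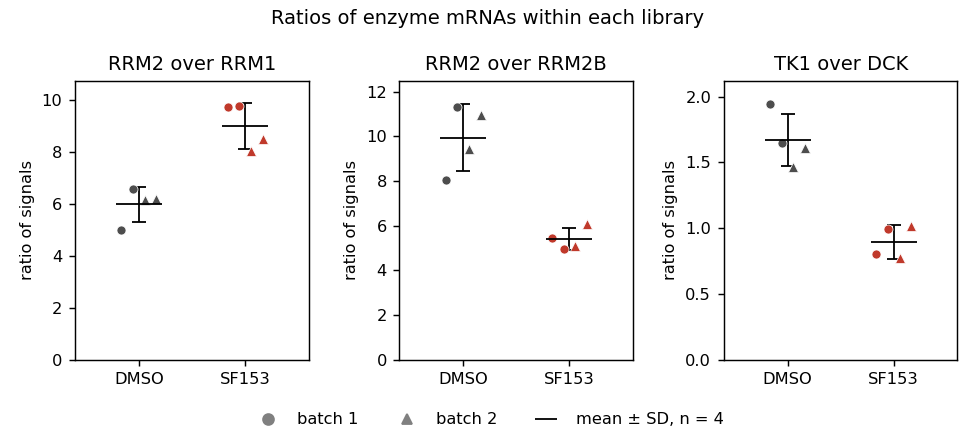
Ratio of the signals of 2 enzymes within each library (linear axis from 0), DMSO in grey and SF153 in red, circles batch 1 and triangles batch 2, with mean ± SD (n = 4). RRM2 over RRM1 is higher in all SF153 libraries, and RRM2 over RRM2B and TK1 over DCK are lower in all of them.

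Other genes of nucleotide metabolism were taken from 6 lists. Of 104 such genes tested, apart from the 9 enzymes, 55 were lower and 10 higher, with a median log2 difference of -0.39, beside 24.3% lower and 13% higher among all genes tested. The list of genes that control or feed ribonucleotide reductase had 14 of 19 lower and 2 higher (median -0.55). TXN, the thioredoxin that returns electrons to the reductase, fell from 84.0 ± 11.6 to 22.8 ± 5.83 (SD, n = 4, log2 difference -1.86, limma adjusted p = 6.91e-05). CCNA2 and CDK1, the cyclin and kinase whose complex phosphorylates SAMHD1 in cycling cells, fell from 14.7 ± 1.51 to 4.05 ± 0.44 and from 49.9 ± 5.51 to 21.4 ± 4.39. The checkpoint kinase CHEK1, which responds to stalled replication, fell by 1.19 on the log2 scale. The number lower in this list was 8 in batch 2 alone, where 17% of all genes were called lower, and 9 after removal of mitochondrial and small RNA genes, where 13.8% were. The higher genes, the CDK inhibitor CDKN1A and the DNA damage kinase ATM, named after their values were seen, had log2 differences of 0.34 and 0.35. Of these 2 calls 1 was left in batch 2 alone and without any of DMSO 1.2, DMSO 2.1, SF153 1.1 or SF153 1.2, and neither with averaged libraries.

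The folate list, which supplies the methyl group for TYMS, had 7 of 16 lower, TYMS among them, and 2 higher (median -0.48). Among all genes tested 24.3% were lower and 13% higher. GGH, the folate hydrolase, fell from 19.5 ± 3.75 to 6.82 ± 2.32 (SD, n = 4, log2 difference -1.43), and the trifunctional folate enzyme MTHFD1 fell from 66.4 ± 6.29 to 30.8 ± 3.34 (log2 difference -1.08). The folate carrier SLC19A1, named after its values were seen, was among the higher genes, with a log2 difference of 0.31. The number higher was 1 in either batch alone, with averaged libraries and without SF153 2.1, and 6 of 16 after removal of mitochondrial and small RNA genes, where 35% of all genes were called higher.

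Of the pyrimidine genes other than the 9 enzymes, 6 of 22 were lower and 4 higher (median -0.15), shares near the 24.3% and 13% of all genes tested. The nucleoside diphosphate kinases NME2 and NME1, which make the triphosphates, fell from 272.7 ± 28.3 to 74.3 ± 26.4 and from 74.6 ± 8.54 to 23.8 ± 4.71, and CMPK1, the UMP/CMP kinase, had a log2 difference of -1.06. NME1 and NME2 are close paralogs and neighbours, so the split of reads between them is uncertain. TYMP, which breaks thymidine down to thymine, rose from 13.5 ± 0.85 to 35.0 ± 3.97 (SD, n = 4, log2 difference 1.30, limma adjusted p = 2.98e-05). The other higher genes, named after their values were seen, were the nucleoside carrier SLC29A2 (0.90), the uridine phosphorylase UPP1 (0.85) and the uridine kinase homolog UCKL1 (0.39). UPP1 was low throughout, at 1.28 or less in DMSO and 2.91 or less in SF153. The DMSO and SF153 ranges overlapped for UPP1 and for UCKL1. The number higher was 2 with averaged libraries and without any of DMSO 1.2, DMSO 2.1, SF153 1.1 or SF153 2.2.

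The purine list had 18 of 25 lower and 1 higher (median -0.64), beside 24.3% lower and 13% higher among all genes tested. The phosphoribosyl pyrophosphate synthetases PRPS2 and PRPS1, which make the sugar donor for purines and pyrimidines, fell from 16.9 ± 1.68 to 5.95 ± 1.49 and from 14.1 ± 1.72 to 5.41 ± 2.12 (SD, n = 4), and the adenylate kinase family gene AK6 had a log2 difference of -1.47. PAICS, a de novo purine enzyme, fell from 68.7 ± 6.04 to 29.6 ± 1.19. AK1, a cytosolic adenylate kinase, was called higher (log2 difference 1.51, limma adjusted p = 0.034), but its DMSO and SF153 libraries overlapped, the differences were 2.50 in batch 1 and 0.51 in batch 2, and the call was lost without DMSO 1.1, DMSO 1.2 or any single SF153 library (1.16 to 1.595), in batch 2 alone, with averaged libraries and with no filter on low values.

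Of the genes that cleanse or break down nucleotides, 9 of 15 were lower and 6 were not called (median -0.62). The share lower among all genes tested was 24.3%. DCTPP1, which hydrolyses dCTP and its modified forms, fell from 26.1 ± 2.95 to 6.74 ± 1.30 (SD, n = 4, log2 difference -1.82, limma adjusted p = 3.07e-05). DNPH1, which removes abnormal deoxynucleoside monophosphates, UNG, which cuts uracil out of DNA, and NUDT1, which destroys oxidised dGTP, had log2 differences of -1.79, -1.69 and -1.33. SAMHD1, a member of this list too, was not among those called. With mitochondrial and small RNA genes removed, 3 of the 15 genes were called higher, against 35% of all genes.

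The list of mitochondrial deoxynucleotide supply, to which RRM2B belongs, had 3 of 12 lower and 1 higher (median -0.11), again near the 24.3% and 13% of all genes tested. The lower genes were TFAM, which packages mitochondrial DNA, SSBP1, its single-strand binding protein, and DGUOK, the mitochondrial deoxyguanosine kinase, with log2 differences of -1.29, -0.80 and -0.56, and the higher gene was the inner membrane protein MPV17 (0.33). The DGUOK call was lost in either batch alone, after quantile normalisation and after removal of mitochondrial and small RNA genes (-0.24), and MPV17 was not called in batch 2 alone or with averaged libraries. With mitochondrial and small RNA genes removed, 4 of the 12 genes were called higher, where 35% of all genes were.

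**Figure D5:**
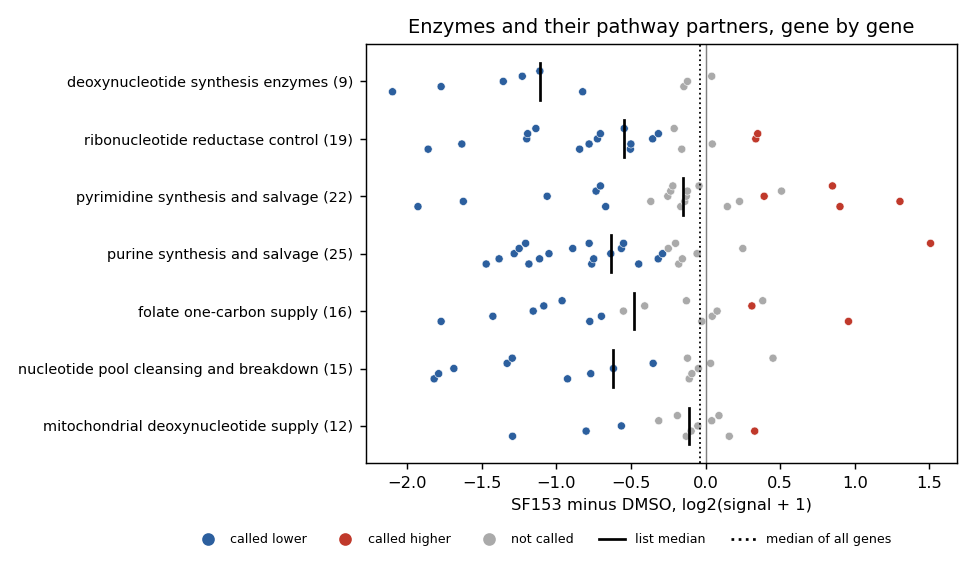
Difference of SF153 minus DMSO in log2(signal + 1) for each tested gene of the enzyme group and of 6 lists (number tested in brackets); blue is called lower, red called higher and grey not called, the black bar is the list median and the dotted line the median of all genes. The enzyme group has the median furthest to the left, at -1.11, and the mitochondrial supply and pyrimidine lists lie nearest to 0.

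The genes whose log2 signal followed RRM2 most closely over the 8 libraries were LRPPRC, KIF11, DNAJC7, PHF6 and PAICS, with Pearson r between 0.991 and 0.995. The libraries fall into 2 treatment groups, which set most of this likeness, so these values are a description. The changes themselves differed in size. KIF11, a mitotic kinesin motor, had a log2 difference of -1.26, PAICS -1.18, the chromatin protein gene PHF6 -0.75, the mitochondrial RNA-binding protein gene LRPPRC -0.54 and the cochaperone gene DNAJC7 -0.36, beside -0.82 for RRM2. DNAJC7 was not called in batch 2 alone, with averaged libraries, after quantile normalisation or after removal of mitochondrial and small RNA genes (-0.02).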

How the data were processed

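Gene-level values of 8 total RNA libraries, 4 per treatment, came from 4 tables. Per the labels' protocols, ribosomal RNA was depleted and libraries were random-primed and strand-specific. The deposited values are recorded as signal: the names of the authors' tables hold both CPM and TPM, the column sums differ, and the scaling was not given in the sources used here. CASAVA 1.8.2, STAR, Salmon, edgeR and GRCh38 are named, without roles, per the submitters' processing notes. Of the 8 column names, 4 were spelled differently from the labels and were matched by number, letter and index pair.

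The fit used limma 3.58.1 (R 4.3.3) with an intensity trend on log2(signal + 1) for genes whose signal averaged at least 1, without a batch term, with Benjamini-Hochberg adjustment over all genes tested and calls at 0.05. Fold changes on this scale understate the change of low genes. The fit was tested on simulated data. The simulation gave each library independent noise and held no shift in composition, so it does not test the calls under such conditions. Ratios were tested by exact permutation over libraries. Positions and transcript lengths are from GENCODE 29, which matched 17235 of 17912 identifiers by their unversioned form.

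Batch numbers were read from the labels, and libraries with the same number were treated as sharing a batch, which would pair the treatments. Across genes the difference between batches in DMSO correlated weakly with the one in SF153 (Pearson r = 0.067). Named genes were the 9 enzymes, up to 4 called genes per list with the largest change, and the 5 genes most correlated with RRM2. Results of some genes of the folate list are not reported here. The enzymes and lists were chosen with earlier results of these data known. Marker lists held myeloid, lymphoid, and erythroid, epithelial and stromal genes, and of the last PECAM1 alone had values (9.52 to 17.8 in DMSO, 15.7 to 24.2 in SF153). A planned search of protein sequences was not run.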

Additional observations from a re-analysis of the deposited data

Results flagged for a closer look

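In 2 of 24 groups of 4 values examined (9 enzymes and 3 ratios in each treatment), a library lay far from the other 3 by Dixon's test, which chance does in about 1 of 20 groups. DUT had a signal of 111.1 in DMSO 1.1, against 85.0 to 88.9 in the other DMSO libraries. SAMHD1 had 80.8 in SF153 1.1, against 92.6 to 94.4 in the other SF153 libraries, and without SF153 1.1 its log2 difference was -0.07 (limma adjusted p = 0.439).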

How the results depend on the processing

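Of 180 values of the 9 enzymes under 20 alternatives, 173 kept their direction and side of the threshold, 6 changed sign and 1 gained a call. The sign changes were all in enzymes that had not passed: RRM2B in batch 1 alone (-0.063) and without DMSO 2.2 (-0.028, in a range up to 0.128 over left-out libraries), CTPS1 and SAMHD1 after quantile normalisation (0.037 and 0.051) and once mitochondrial and small RNA genes were removed (0.19 and 0.22). The enzymes called lower numbered 6 throughout, and those called higher 1, RRM2B, without mitochondrial and small RNA genes. Over all genes the number lower was 2443 in batch 1 alone and 2115 with mitochondrial and small RNA genes removed, and the number higher 973 and 957 in batches 1 and 2, 910 with averaged libraries, 3234 after quantile normalisation and 5382 with mitochondrial and small RNA genes removed, against 3770 and 2015 as reported.

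With batch as a replicate block 3870 genes were lower and 2073 higher, and no enzyme call changed. For the ratios, libraries permuted within batch (replicate block) kept the log2 differences of 0.593, -0.872 and -0.90 (RRM2 over RRM1, RRM2 over RRM2B, TK1 over DCK) with the smallest possible adjusted p of 0.0556. The 3 differences were 0.765, -0.876 and -1.005 in batch 1 and 0.42, -0.869 and -0.795 in batch 2, and 0.51 to 0.646, -0.97 to -0.805 and -0.964 to -0.825 over left-out libraries, where the design cannot pass 0.05. Read depth is unknown, so no counting limit is given.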
